A study of Mus musculus with 30 samples.

Results

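Genes that encode 9 subunits of the SRCAP complex (Srcap, Znhit1, Vps72, Actr6, Actl6a, Yeats4, Dmap1, Ruvbl1 and Ruvbl2) were followed through acute loss of the SRCAP protein in mouse embryonic stem cells (mESCs). The study counts 9 subunits besides SRCAP itself, so the list is not complete. They were taken by symbol from the known makeup of the complex, and all 9 were found among the 55401 genes of each count table. The question was whether the mRNAs of the partners move when the catalytic subunit is removed. Over 8 h of SRCAP degradation the exon reads of Dmap1 fell, to 48.9% of the control level at 8 h by the fitted fold change. Its trend over hours passed the test, but not when either control library was left out. The 8 h contrast of Dmap1 alone did not pass in the main edgeR fit. The 8 other members did not pass the test of a trend over hours, which 3.35% of all genes tested passed. Dmap1 exon reads were also lower after degradation of the tagged SRCAP in cells with a wild-type or catalytically dead SRCAP transgene.

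SRCAP is a Snf2-type ATPase that exchanges canonical H2A-H2B dimers in nucleosomes for dimers that carry the histone variant H2A.Z. Znhit1, Actr6 and Vps72 help to hold or hand over the histone dimer. Actl6a, Yeats4, Dmap1, Vps72 and the AAA+ ATPases Ruvbl1 and Ruvbl2 are also subunits of the TIP60/EP400 complex, and Actl6a, Ruvbl1 and Ruvbl2 belong to the INO80 remodeler as well, so that these genes serve several chromatin machines at once. H2A.Z marks promoters and enhancers, and in mESCs it is abundant at bivalent promoters.

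Nuclear RNA was sequenced from 30 libraries in 15 groups of 2 biological replicates. All cells derive from the mESC line CGR8 grown in serum and LIF. In SYAT cells both Srcap alleles carry a 3′ YPet-AID tag and the plant F-box protein OsTir1 is expressed, so that auxin (IAA, 500 µM) sends SRCAP to the proteasome. Control cells received the OsTir1 inhibitor auxinole. SYAT cells were sampled in the control state and after 2, 4, 6 and 8 h of IAA, and untagged CGR8 cells in the control state and after 4 h of IAA. EG1 and LG1 cells are SYAT cells with an mCherry mitotic degron reporter, sorted from early or late G1 phase, without or with 1 h of IAA. The wtSRCAP and cdSRCAP lines are SYAT derivatives, 1 clone each, with a doxycycline-inducible SRCAP-mCherry transgene that is wild type or catalytically dead. They were induced for 24 h with 1 µg/mL doxycycline, sorted for similar high mCherry, and kept in the control state or given IAA for 4 h. IAA acts on the tagged protein and not on its mRNA, so Srcap reads are no check of the degradation, and in the wtSRCAP and cdSRCAP lines reads from the transgene and the endogenous gene cannot be told apart.

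The promoters of 3 members are shown because these genes have the clearest decline (Dmap1), the next smallest p of the trend over hours (Yeats4) and the degraded subunit itself (Srcap). Each window holds 250 bases before and 50 after the gene's start, from RefSeq in build GRCm38.p6, printed 5′ to 3′ on the gene's strand. Capitals mark matches, on either strand, to 7 short motifs. The ETS motif is CCGGAAG and the core of the NRF1 site is GCATGCG. The GC box is GGGCGG, the CCAAT box is spelled by its name, and the TATA box searched was TATAAA. The E-box is CACGTG and the core of the YY1 site is AAGATGG. The Dmap1 window is chr4:117682176-117682475 on the minus strand, the Yeats4 window chr10:117224458-117224757 on the minus strand and the Srcap window chr7:127511733-127512032 on the plus strand.
Dmap1: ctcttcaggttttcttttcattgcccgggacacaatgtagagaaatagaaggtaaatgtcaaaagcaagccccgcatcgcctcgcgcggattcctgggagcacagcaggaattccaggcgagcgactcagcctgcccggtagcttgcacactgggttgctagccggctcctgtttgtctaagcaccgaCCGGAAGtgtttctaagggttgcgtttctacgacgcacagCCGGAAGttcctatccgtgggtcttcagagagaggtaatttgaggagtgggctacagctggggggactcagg
Yeats4: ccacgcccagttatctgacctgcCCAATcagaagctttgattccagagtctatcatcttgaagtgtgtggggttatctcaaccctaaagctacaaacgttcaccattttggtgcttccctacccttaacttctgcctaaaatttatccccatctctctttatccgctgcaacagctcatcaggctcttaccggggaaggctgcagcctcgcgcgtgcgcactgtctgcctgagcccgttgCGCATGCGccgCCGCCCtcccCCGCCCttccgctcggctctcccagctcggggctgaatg
Srcap: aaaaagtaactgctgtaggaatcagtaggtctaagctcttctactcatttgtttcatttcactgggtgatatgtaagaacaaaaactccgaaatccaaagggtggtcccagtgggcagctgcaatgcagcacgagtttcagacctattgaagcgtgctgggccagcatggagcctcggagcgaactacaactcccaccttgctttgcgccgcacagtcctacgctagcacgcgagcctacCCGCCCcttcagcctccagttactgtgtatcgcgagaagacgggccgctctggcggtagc
The Dmap1 promoter held 2 copies of CCGGAAG, a motif that Actr6 and Znhit1 also had and that occurs in 8.86% of all 32851 promoters. The Yeats4 window held the NRF1 core in 2 overlapping matches, a motif found in 3.58% of promoters, beside 2 GC boxes and a CCAAT. The Srcap window held a single GC box, which Actl6a, Ruvbl1, Ruvbl2 and Yeats4 had as well and which occurs in 35.7% of promoters. TATAAA was matched in Ruvbl1 alone among the 8 members with a promoter in the RefSeq set, against 13.6% of all promoters. CACGTG (7.15% of promoters) and AAGATGG (6.34%) were matched in Znhit1 alone, and CCAAT (37.4%) in Actr6, Ruvbl1, Ruvbl2 and Yeats4. GC content was 55% for Dmap1, 56.3% for Yeats4 and 53.3% for Srcap, against a median of 52.7% over all promoters. Letter matches describe the windows and show no binding.

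Exon counts summed to 17540823 to 22873893 per library in the SYAT time course, 45617992 to 60214521 in CGR8, 19740778 to 26672402 in EG1 and LG1, and 12236493 to 26369773 in wtSRCAP and cdSRCAP. The mESC identity was checked with a list of pluripotency markers, which summed to 2069 to 5437 CPM (counts scaled to a fixed library total) in every library, against 2.421 to 14.92 CPM for primitive endoderm, 6.422 to 53.9 for mesenchyme, 26.49 to 111.7 for trophectoderm and 49.44 to 173.2 for neural markers. A list of nuclear and mitochondrial transcripts (Malat1, Neat1, mt-Co1, mt-Nd1 and mt-Cytb) was low in 3 libraries. In replicate 2 of the 6 h SYAT group it summed to 3647 CPM, against 10210 to 12180 in the 9 other libraries of the time course. In CGR8 control replicate 1 it was 4645, against 9014 to 14030 in the other CGR8 libraries, and in wtSRCAP IAA replicate 1 it was 3790, against 6677 to 10010 in the other libraries of that table. In the 6 h library 6 of the 9 members (Srcap, Znhit1, Vps72, Actl6a, Ruvbl1 and Ruvbl2) had their highest normalized level of the time course, so its counts are given apart. The trend over time is also given without this library for Yeats4 and Vps72, and without both 6 h libraries for Dmap1, Yeats4 and Vps72. For the other members only the trend that includes it is given.

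Levels between genes were compared as normalized exon counts per kilobase of exon in the SYAT control. Ruvbl2 led with 1669 ± 62.4 (SD, n = 2), followed by Ruvbl1 with 834 ± 12.3, Yeats4 with 659 ± 59 and Actl6a with 521 ± 2.37. Znhit1 (281 ± 11.7), Vps72 (244 ± 7.99) and Dmap1 (215 ± 4.94) formed the middle, and Actr6 (119 ± 3.85) and Srcap (55.5 ± 5.42) the lower end. The replicate values of the 8 pairs of neighbours in this order did not overlap. The top gene stood 30.09-fold above the bottom one on this scale. In the control groups of CGR8, EG1, LG1, wtSRCAP and cdSRCAP, Ruvbl2 was again at the top, but 3 neighbour pairs overlapped in CGR8 and 4 in each of the others. Srcap exons share 9738 of 15783 bases with exons of Gm42715 and Snora30 on the same strand, which can lower its count. The last place of Srcap and the 30.09-fold range can be affected by this. Gm42715 itself held 26 to 104 exon reads per library. On the opposite strand, Srcap overlaps 1700008J07Rik and Gm28198, Znhit1 overlaps Plod3, Actl6a overlaps Mrpl47 and Gm37353, and Ruvbl2 overlaps Lhb and Gys1. Whether reads were counted by strand is not stated, so reads of these partners may be in the counts.

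**Figure D1:**
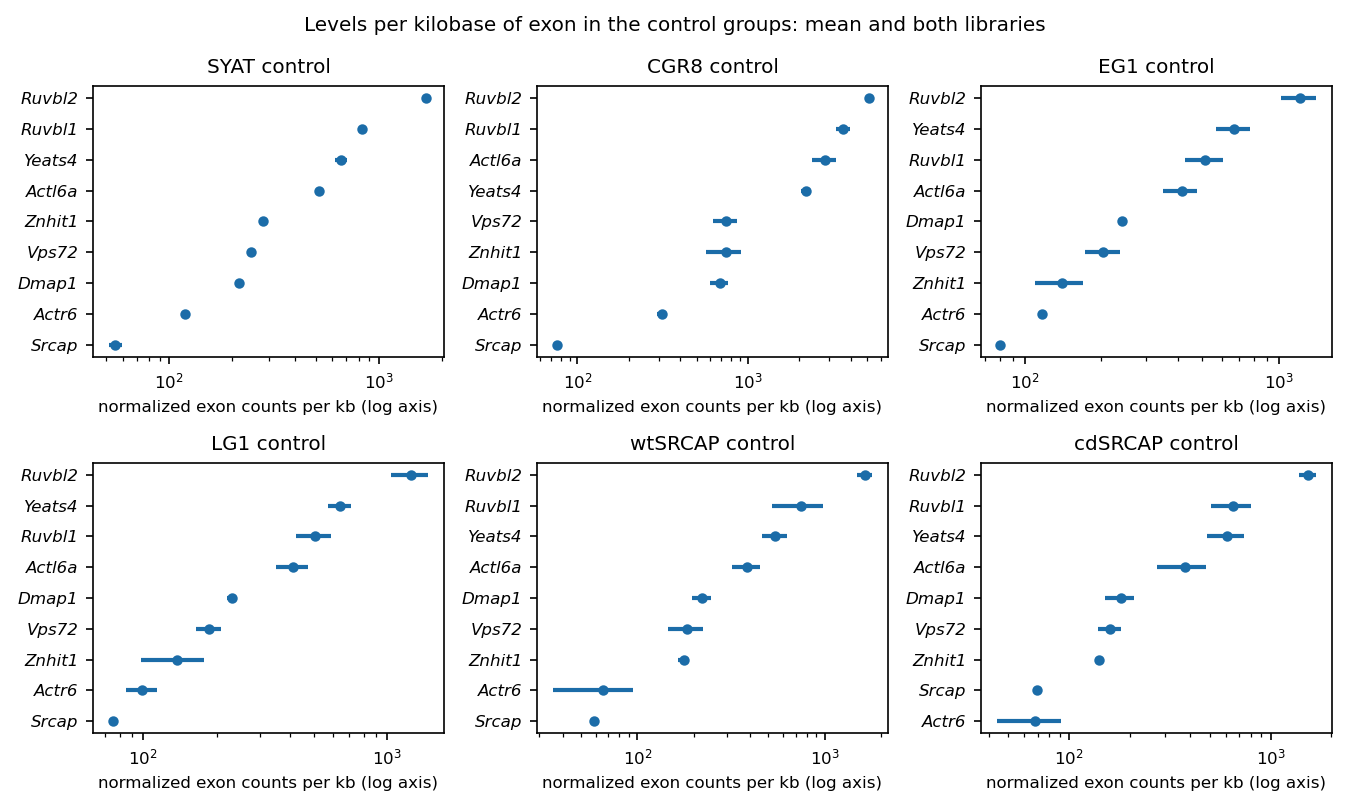
Normalized exon counts per kilobase of exon for the 9 subunit genes in the control groups (log axis), with points for the group means and lines from the lower to the higher replicate. Ruvbl2 is highest in each control group, and the highest and lowest members differ 30.09-fold in SYAT. The lowest there is Srcap, whose count can be lowered because 9738 of its 15783 exon bases are shared with other genes on the same strand.

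Dmap1, at chromosome 4, 117674681 to 117682273 (GRCm38, minus strand), encodes DNA methyltransferase 1-associated protein 1, a scaffold subunit shared with TIP60/EP400. In the SYAT control its normalized exon counts were 556.4 and 574.8. They were 407.8 and 410.9 at 2 h, 352.4 and 361.5 at 4 h, 311.8 and 421.6 at 6 h, and 300.1 and 253.6 at 8 h. Every IAA library lay below both controls, and the 2 replicates at 8 h were the lowest of all. Against control the fitted log2 fold change was -0.47 at 2 h (SE 0.182, 95% confidence interval -0.87 to -0.06), -0.66 at 4 h (SE 0.182, interval -1.07 to -0.26), -0.63 at 6 h (SE 0.183, interval -1.03 to -0.22) and -1.03 at 8 h (SE 0.184, interval -1.44 to -0.62). With edgeR's quasi-likelihood test and Benjamini-Hochberg adjustment over 19205 genes, no time point passed alone, with adjusted p = 1 at 2 h, 0.267 at 4 h, 0.155 at 6 h and 0.0716 at 8 h. At 8 h DESeq2 gave an adjusted p of 0.00159 and edgeR without a filter on low counts 0.00423. The trend over all 10 libraries passed, at -0.11 log2 units per hour of IAA (SE 0.0211, interval -0.157 to -0.0666, adjusted p = 0.0156). Without control replicate 1 the slope was -0.11 and the adjusted p 0.101, and without control replicate 2 they were -0.10 and 0.0963, while the calls over all genes went from 643 to 39 and 69. Without both 6 h libraries, an alternative chosen after seeing the data, the adjusted p was 0.00658 at a slope of -0.12. The summed level of 5 trophectoderm markers, each detected, also moved with IAA, from 28.55 and 26.49 CPM in the control to 33.31 to 42.69 in the 8 IAA libraries. The mESC marker sum was likewise above the control of the same replicate number. It went from 2316 to 2479 to 2722 CPM in replicate 1 and from 2944 to 3014 to 3341 in replicate 2. Such sums can be carried by a single gene, and their part in the Dmap1 values was not tested.

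**Figure D2:**
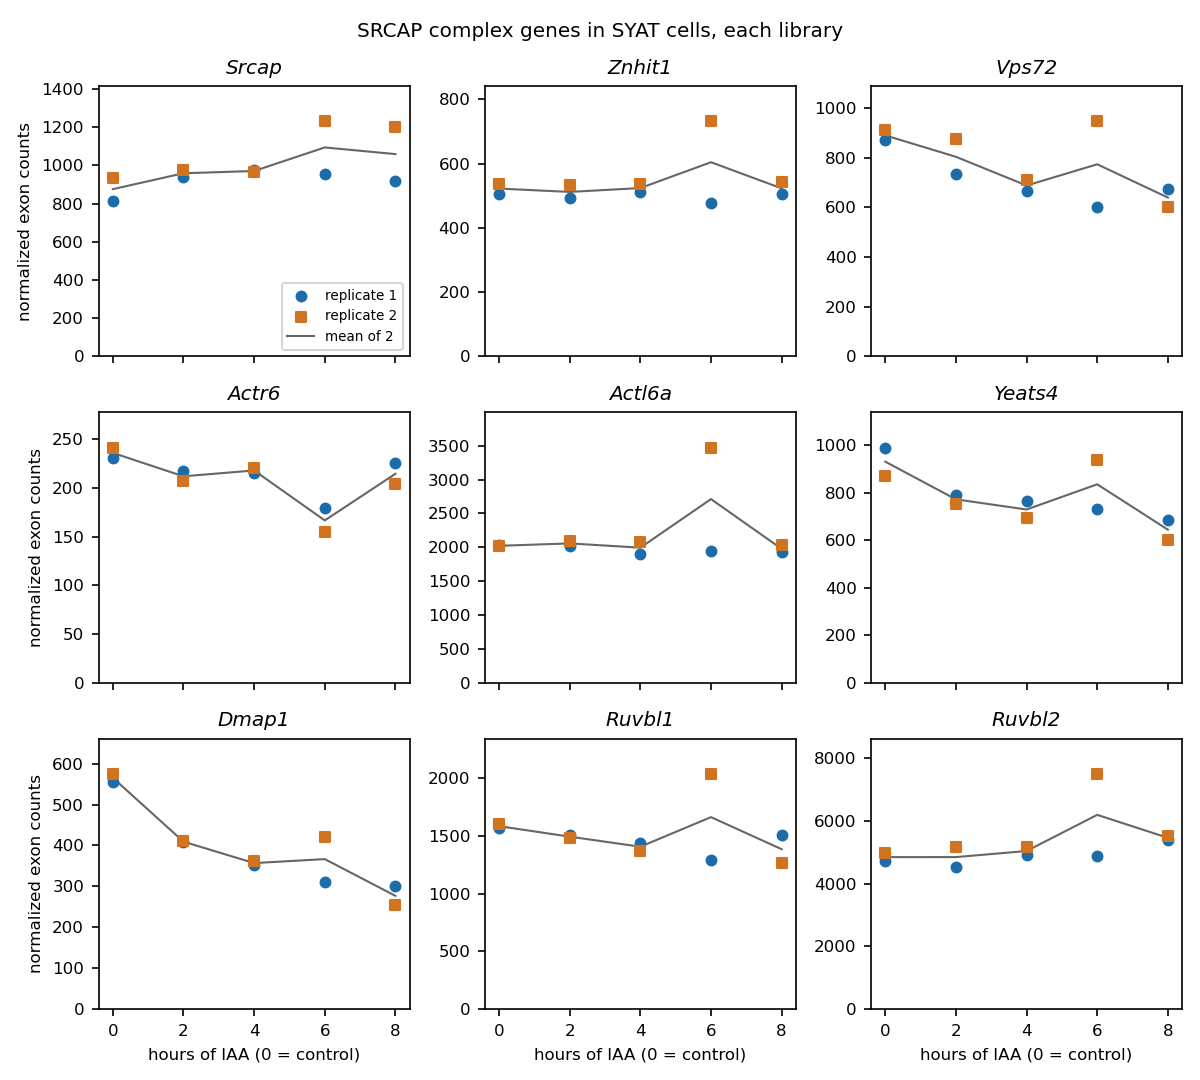
Normalized exon counts of each subunit gene in the 10 SYAT libraries against hours of IAA, with a point per replicate and a line through the group means. Dmap1 goes from 556.4 and 574.8 in the control to 300.1 and 253.6 at 8 h, and 6 h replicate 2 stands above its partner for 8 members.

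Yeats4 (GAS41), at chromosome 10, 117215221 to 117224507 (minus strand), is a reader of acetylated histone H3 with a YEATS domain and is likewise shared with TIP60/EP400. Its normalized exon counts were 990.8 and 872.7 in the control, 791 and 754.6 at 2 h, 765.3 and 694.7 at 4 h, 733.9 and 938.6 at 6 h, and 687.2 and 602.9 at 8 h. Both replicates lay below both controls at 2, 4 and 8 h, while the 6 h replicates spanned the lower control. At 8 h the log2 fold change was -0.53 (interval -0.89 to -0.17, adjusted p = 0.193), and the trend was -0.05 per hour (interval -0.0892 to -0.00474, adjusted p = 0.205). The trend passed without 6 h replicate 2 (slope -0.06, adjusted p = 0.0184), where 7.68% of all genes passed, and without both 6 h libraries (slope -0.06, adjusted p = 0.0357), where 4.4% did.

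Vps72 (YL1), at chromosome 3, 95111022 to 95123051 (plus strand), binds H2A.Z-H2B dimers and serves in both SRCAP and TIP60/EP400. Its normalized exon counts were 868.8 and 909.9 in the control, 733.1 and 873.2 at 2 h, 664 and 711 at 4 h, 599.9 and 946.1 at 6 h, and 675.2 and 602.9 at 8 h. The 4 h and 8 h replicates were below both controls, whereas 6 h replicate 2 was the highest of the series and 6 h replicate 1 the lowest. It gave a log2 fold change of -0.37 at 4 h (adjusted p = 0.672) and -0.48 at 8 h (interval -0.93 to -0.02, adjusted p = 0.349). The trend was -0.05 per hour (interval -0.0968 to -0.00387, adjusted p = 0.216), and it passed without 6 h replicate 2 (slope -0.07, adjusted p = 0.0139) or without both 6 h libraries (slope -0.06, adjusted p = 0.042).

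Srcap, the degraded subunit, at chromosome 7, 127511983 to 127561219 (plus strand), had normalized exon counts of 815 and 936 in the control, 941.4 and 976.1 at 2 h, 975.7 and 965.4 at 4 h, 956.8 and 1231 at 6 h, and 917.2 and 1201 at 8 h. All IAA libraries but 8 h replicate 1 were above both controls. The largest log2 fold change was 0.32 at 6 h (interval -0.07 to 0.71, adjusted p = 0.391), and the trend of 0.04 per hour did not pass (interval -0.00104 to 0.0751, adjusted p = 0.267).

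Actr6 (ARP6) and Znhit1 form with SRCAP the module that contacts the nucleosome. Actr6, at chromosome 10, 89711971 to 89732295 (minus strand), had normalized exon counts of 230.6 and 241.4 in the control, 217.2 and 206.7 at 2 h, 215.8 and 220.1 at 4 h, 179 and 154.3 at 6 h, and 225.1 and 204 at 8 h. All 8 IAA libraries were below both controls, but by little except at 6 h, where the log2 fold change was -0.50 (interval -0.91 to -0.09, adjusted p = 0.227). The trend of -0.03 per hour had an adjusted p of 0.501. Znhit1, at chromosome 5, 136982164 to 136988021 (minus strand), had 506.8 and 537.6 in the control, 491.3 and 532.1 at 2 h, 512.1 and 535.4 at 4 h, 476.6 and 731.6 at 6 h, and 504.1 and 541.6 at 8 h. Apart from the 6 h replicates its groups overlapped throughout, and the log2 fold change at 8 h was 0.00 (interval -0.44 to 0.44).

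Actl6a (BAF53a) is an actin-related protein that SRCAP shares with TIP60/EP400, INO80 and BAF complexes, and it lies at chromosome 3, 32706298 to 32726973 (plus strand). Its normalized exon counts were 1906 to 2098 in 9 of the libraries and 3473 in 6 h replicate 2. Ruvbl1 (chromosome 6, 88465409 to 88497572, plus strand) had 1567 and 1600 in the control, 1507 and 1478 at 2 h, and 1439 and 1372 at 4 h. It had 1288 in 6 h replicate 1, 2035 in 6 h replicate 2, and 1505 and 1263 at 8 h. Its IAA libraries other than 6 h replicate 2 were all below both controls. Ruvbl2 (chromosome 7, 45421760 to 45438096, minus strand) had 4714 and 4970 in the control, 5402 and 5512 at 8 h, and 7491 in 6 h replicate 2. Both 8 h replicates were thus above the control range for Ruvbl2 and below it for Ruvbl1, and Actl6a stayed level outside that 6 h library. The trends were 0.02 per hour for Actl6a (interval -0.0382 to 0.0771), -0.01 for Ruvbl1 (interval -0.056 to 0.0337) and 0.04 for Ruvbl2 (interval -0.00611 to 0.0773), and none passed.

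**Figure D3:**
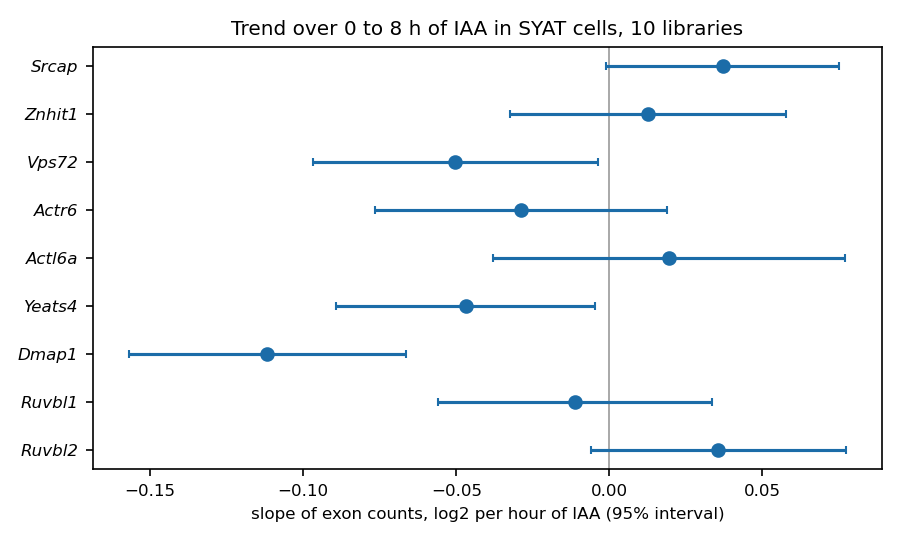
Fitted slope of exon counts for the 9 subunit genes over 0 to 8 h of IAA in 10 SYAT libraries, in log2 units per hour, with bars for the 95% confidence interval. Dmap1 is farthest from 0, at -0.11, and Vps72 and Yeats4 also have intervals below 0 before adjustment for multiple tests.

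Across the 9 members, 1 passed the trend test (Dmap1, lower), against a background of 3.35% of the 19205 genes tested, of which 489 were lower and 154 higher. At an unadjusted p under 0.05, 3 members (Dmap1, Vps72 and Yeats4) stood out in the trend, against 19.6% of all genes. The median slope was -0.01 for the members and 0.00 for all genes. For single time points a call needed an adjusted p under 0.05 and an absolute log2 fold change over 0.5, and edgeR called 0 members at 2 h, 4 h, 6 h and 8 h. The backgrounds by edgeR were 0% of genes at 2 h and at 4 h, 0.0677% at 6 h and 0.00521% at 8 h. DESeq2 called 0 members at 2, 4 and 6 h and 1 (Dmap1) at 8 h. Of the 35880 genes in its fit DESeq2 called 8 at 2 h, 123 at 4 h, 567 at 6 h and 378 at 8 h. At an unadjusted p under 0.05 the counts were 1 at 2 h (Dmap1, against 3.92% of genes), 1 at 4 h (Dmap1, 9.09%), 2 at 6 h (Dmap1 and Actr6, 16.1%) and 3 at 8 h (Dmap1, Yeats4 and Vps72, 13.6%). Without 6 h replicate 1, so that the 6 h group was the library that stands apart, 2 members (Actl6a and Ruvbl2) passed at 6 h, against 15.4% of all genes under that setting. The 4 contrasts share their control libraries, so they are not separate tests of one gene. As bulk values, less RNA per cell and fewer cells expressing a gene cannot be told apart here.

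CGR8 cells, which have neither the tag nor OsTir1, show what 4 h of IAA does in the absence of both. Effects of IAA that need OsTir1 but not the tag are outside this comparison. Dmap1 had normalized exon counts of 2028 and 1574 in the control and 1605 and 1531 with IAA, and the upper IAA value lay between the controls. This is a log2 fold change of -0.20 (SE 0.169, interval -0.58 to 0.19, adjusted p = 0.741). Vps72 had 3144 and 2272 in the control and 2140 and 1945 with IAA, with both IAA values below the controls (log2 fold change -0.41, interval -0.82 to 0.01, adjusted p = 0.544). Actr6 had 579.1 and 664 in the control and 713 and 1001 with IAA, with both IAA values above the controls (log2 fold change 0.46, interval -0.02 to 0.95, adjusted p = 0.551). The log2 fold changes of the other 6 members lay between -0.35 (Znhit1) and 0.00 (Yeats4). By edgeR 0 of 9 members were called (background 0.00988% of 20250 genes), 0 had an unadjusted p under 0.05 (background 9.16%), and DESeq2 called 0. The median log2 fold change of the members was -0.17, against 0.00 over all genes. Control replicate 1 was the higher of the pair for 7 of the 9 members, and leaving out control replicate 2 brought 2 calls, Vps72 (-0.62, adjusted p = 0.0145) and Znhit1 (-0.65, adjusted p = 0.0201), while 10.9% of all genes were called under that setting. That left control replicate 1, the library low in the nuclear and mitochondrial list, as the control. CGR8 and SYAT were counted in separate tables, so the 4 h effect of Dmap1 in SYAT (-0.66, interval -1.07 to -0.26) and that in CGR8 are side by side here and their difference was not tested.

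The wtSRCAP and cdSRCAP lines ask whether a transgenic SRCAP, with or without catalytic activity, alters the response to 4 h of IAA. In wtSRCAP cells Dmap1 had normalized exon counts of 514.2 and 653.5 in the control and 344.3 and 361.7 with IAA. In cdSRCAP cells it had 400.1 and 557.2 in the control and 323 and 344.6 with IAA. In both lines the IAA values lay below both controls, and the controls were more spread than in SYAT. The log2 fold change in wtSRCAP was -0.73 (SE 0.248, interval -1.28 to -0.17, adjusted p = 0.644). With the replicate number as a block it was -0.72 and passed (adjusted p = 0.0353), a setting under which 612 of 19111 genes were called. In cdSRCAP it was -0.52 (interval -1.08 to 0.03, adjusted p = 0.903), and the block left it short of the threshold (adjusted p = 0.18). The responses of the lines differed by 0.20 (cdSRCAP minus wtSRCAP, interval -0.58 to 0.99, adjusted p = 1), an interval too wide to separate an equal response from a sizeable difference.

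**Figure D4:**
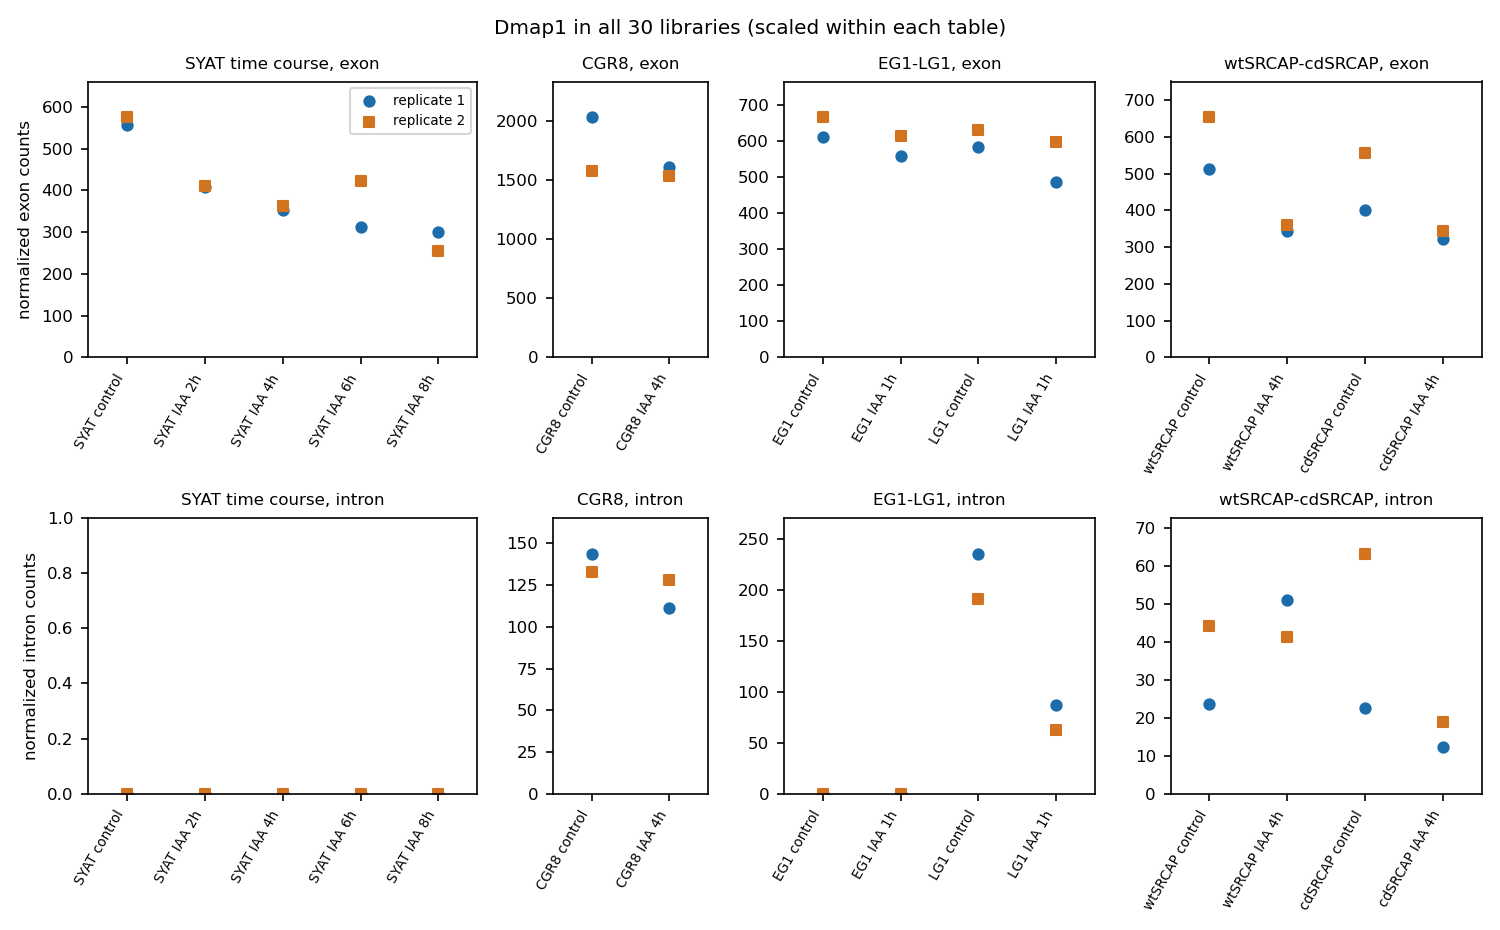
Normalized exon counts (upper row) and intron counts (lower row) of Dmap1 in every library of the 4 tables, with a point per replicate, grouped by cell line and hours of IAA. For exons, the IAA points lie below both controls in SYAT, wtSRCAP and cdSRCAP, and overlap with the controls in CGR8, EG1 and LG1. For introns, they lie below both controls in CGR8, LG1 and cdSRCAP and overlap in wtSRCAP, and SYAT and EG1 have no counts. The tables were normalized separately.

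Znhit1 was the member with the smallest p between the lines. In wtSRCAP its normalized exon counts were 305.9 and 351.4 in the control and 475.2 and 407.7 with IAA (log2 fold change 0.42, adjusted p = 0.73), while in cdSRCAP they were 272.7 and 250.5 in the control and 290.3 and 288.5 with IAA. Under IAA both cdSRCAP values were below both wtSRCAP values, a log2 difference of -0.61 (interval -1.12 to -0.09, adjusted p = 0.951). The higher wtSRCAP value, 475.2, came from IAA replicate 1, a library low in the nuclear and mitochondrial list. Actr6 was set by the replicate in these lines: replicate 1 held 17.93 to 93.25 normalized counts in the 4 groups and replicate 2 held 146.7 to 188.6, and the interval of the wtSRCAP effect was -2.38 to 1.19. The IAA value was the lower one in both wtSRCAP pairs, and with the replicate number as a block the log2 fold change was -0.76 (SE 0.354, adjusted p = 0.257). The lowest value, 17.93, came from IAA replicate 1, the library low in the nuclear and mitochondrial list. Srcap, with the transgene in its counts, had 955.7 and 898.9 in the wtSRCAP control and 1051 and 1080 with IAA, and 1106 and 1087 in the cdSRCAP control and 1369 and 1127 with IAA. All IAA values lay above the controls of their line, by log2 fold changes of 0.20 and 0.19 that did not pass. Vps72 had log2 fold changes of -0.23 and -0.42 in wtSRCAP and cdSRCAP, Yeats4 -0.19 and -0.21, Actl6a 0.06 and 0.31, Ruvbl1 -0.08 and 0.09, and Ruvbl2 0.25 and 0.17, all with intervals that include 0.

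Over these lines edgeR called 0 of 9 members in each comparison, as did DESeq2. The backgrounds were 0.00523% of 19111 genes for the wtSRCAP response, 0% for cdSRCAP, 0% between the controls, 0.00523% between the lines under IAA and 0% for the difference of responses. At an unadjusted p under 0.05, 1 member stood out for wtSRCAP (Dmap1, against 7.4% of genes) and 1 between the lines under IAA (Znhit1, 5.03%). There were 0 for cdSRCAP (5.64%), 0 between the controls (3.82%) and 0 for the difference of responses (0.785%). The median log2 fold change of the members was -0.08 in wtSRCAP and 0.09 in cdSRCAP, against -0.02 and 0.02 over all genes.

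**Figure D5:**
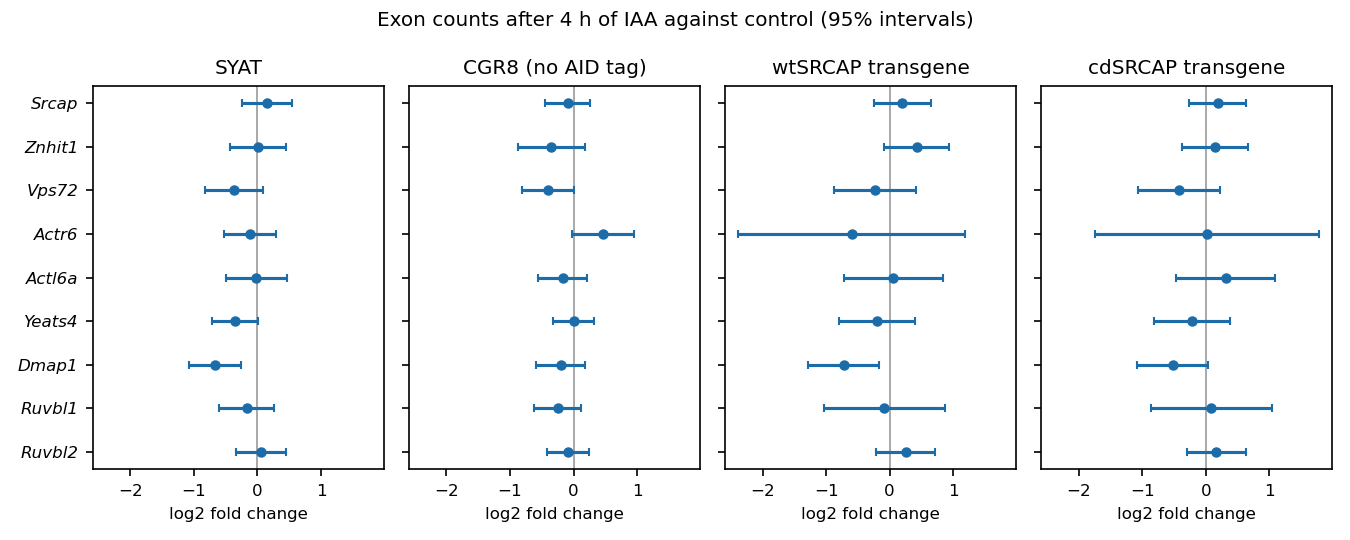
Log2 fold change of exon counts after 4 h of IAA for the 9 subunit genes in SYAT, CGR8, wtSRCAP and cdSRCAP cells, with bars for the 95% confidence interval. For Dmap1 the estimates are -0.66, -0.20, -0.73 and -0.52, with intervals that include 0 in CGR8 and cdSRCAP.

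In cells sorted from G1 phase, 1 h of IAA asks for an earlier response. Dmap1 had normalized exon counts of 611.7 and 665.5 in the EG1 control and 559.4 and 614.3 with IAA, and 582.5 and 631.9 in the LG1 control and 485.2 and 597.2 with IAA. Within each replicate number the IAA value was the lower one, but the groups overlapped. Its log2 fold change was -0.12 in EG1 (interval -0.47 to 0.23) and -0.17 in LG1 (interval -0.52 to 0.18), and the difference of the responses was -0.04 (interval -0.54 to 0.45), with an adjusted p of 1 each. The other 8 members had log2 fold changes from -0.10 (Actr6) to 0.10 (Znhit1) in EG1 and from -0.13 (Actr6) to 0.26 (Znhit1) in LG1, with intervals that include 0. Replicate 2 was the higher of the pair for 8 or 9 of the 9 members in each of the 4 groups. By edgeR 0 of 9 members were called in EG1, LG1 or their difference (background 0% each of 21020 genes), and DESeq2 called 0. At the looser rule of an unadjusted p under 0.05 and an absolute log2 fold change over 0.25, 0 members passed in EG1 (background 1.22%) and 0 in LG1 (1.02%), and 0 had an unadjusted p under 0.05 for the difference (0.699%).

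Reads in introns come largely from unspliced RNA and follow transcription more closely than exon reads. The intron columns of the tables did not behave alike, which limits what they tell of these genes. For SYAT and EG1 libraries, Znhit1, Vps72, Actl6a, Ruvbl1 and Ruvbl2 had more raw intron than exon counts in both replicates of each group, and Dmap1 was listed at 0 in every library. For these 5 genes the intron values moved with the exon values. At 6 h in SYAT, replicate 2 over replicate 1 was 1.423 to 1.706 for introns and 1.533 to 1.779 for exons. Introns are described as gene bodies less exons, a definition that sits poorly with intron counts above the exon counts. Whether exon reads are in these intron columns was not tested. Their intron values are therefore not taken as separate from the exon values as a measure of transcription. In CGR8, LG1, wtSRCAP and cdSRCAP, Srcap was listed at 0 in every library although its exons were counted. Intron counts summed to 22775471 to 32872563 per library in EG1 and 4520810 to 7724200 in LG1 of the same table. Intron levels were therefore compared only between groups of a table whose intron columns behaved alike. The fits still used all groups of a table, so the scaling and spread in EG1 and LG1 came from unlike intron columns.

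Where Dmap1 introns were counted, they gave these values. In LG1 the normalized intron counts were 235.6 and 191.4 in the control and 87.17 and 62.53 after 1 h of IAA, with both IAA values below the controls. This gave a log2 fold change of -1.50 (SE 0.33, interval -2.34 to -0.66) with an adjusted p of 1 over 17441 genes, from raw counts of 149 and 93 against 59 and 27. In CGR8 they were 143.7 and 132.6 in the control and 111.5 and 128.3 with IAA, both below the controls by a small margin. In cdSRCAP they were 22.53 and 63.08 in the control and 12.22 and 18.97 with IAA (log2 fold change -1.45, interval -2.77 to -0.13, adjusted p = 0.393). In wtSRCAP they were 23.68 and 44.02 in the control and 50.9 and 41.13 with IAA, overlapping with the control (log2 fold change 0.43, adjusted p = 0.81). The 50.9 came from IAA replicate 1, the library low in the nuclear and mitochondrial list. At these low counts the difference of the responses, a test added after seeing the data, was -1.88 (cdSRCAP minus wtSRCAP, SE 0.822, adjusted p = 1).

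Of the other members, Srcap introns in SYAT had 313.1 and 331.2 normalized counts in the control, 414.2 and 893.9 at 6 h and 347 and 476.1 at 8 h, with the highest value in 6 h replicate 2 (log2 fold change at 6 h 1.02, adjusted p = 0.246). Vps72 introns, in a column that moved with its exon column, had 963.9 and 1012 in the control and 766.5 and 639 at 8 h. Both 8 h values were below the controls (log2 fold change -0.49, adjusted p = 0.416). Yeats4 introns had 361.1 and 151.5 in the control and 0 and 42.24 at 8 h, from few reads (adjusted p = 0.29). Actr6 introns had 94.79 and 55.63 in the SYAT control and were listed at 0 at 4 h and 6 h, as in EG1 with IAA, where one control was at 0 too, so no fold is given. Ruvbl2 introns were lower in cdSRCAP than in wtSRCAP under IAA, at 262.2 and 247.4 against 474.4 and 307.1 (log2 difference -0.61, interval -1.15 to -0.07, adjusted p = 0.443). The 474.4 came from wtSRCAP IAA replicate 1, the library low in the nuclear and mitochondrial list. No member with intron counts passed an adjusted test by edgeR or DESeq2, in any comparison with all libraries. Without 6 h replicate 1, Srcap, Actl6a and Ruvbl2 passed at 6 h, against 9.56% of all genes under that setting, and without 6 h replicate 2 the trend of Vps72 passed, against 4.75%. With all libraries the backgrounds were 0% of genes at 2 h and 4 h, 0.0136% at 6 h, 0.00679% at 8 h and 2.02% for the trend in SYAT, 0.022% in CGR8, 0.00573% in EG1, 0% in LG1, 0.299% in wtSRCAP, 0.236% in cdSRCAP, and 0.102% and 0.0157% between the lines in control and IAA. At an unadjusted p under 0.05 the members' counts in SYAT were 0 at 2 h (background 5.13%), 1 at 4 h (Actr6, 9.5%), 2 at 6 h (Srcap and Actr6, 14.5%), 1 at 8 h (Yeats4, 13.5%) and 0 for the trend (19%). They were 0 in CGR8 (5.24%), 1 in EG1 (Actr6, 2.28%), 1 in LG1 (Dmap1, 3.94%), 0 in wtSRCAP (12.4%), 1 in cdSRCAP (Dmap1, 11.3%), 0 between the control lines (7.07%) and 2 under IAA (Dmap1 and Ruvbl2, 10.2%).

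Genes of the partner complexes were read from lists of their known subunits. None of the listed genes of TIP60/EP400, INO80, the RUVBL partners R2TP and TTT, or H2A.Z and its chaperone passed an adjusted test with edgeR in any comparison without the replicate block. With the block, among the genes named here, Kat5 passed in the cdSRCAP exons (adjusted p = 0.0234, against 0.722 without it). In the trend, at an unadjusted p under 0.05, 2 of 12 other TIP60/EP400 subunits were lower and 3 higher, and 2 of 12 other INO80 subunits were lower and 0 higher. For R2TP and TTT 2 of 7 were lower and 1 higher, against 11% lower and 8.61% higher over all genes. Kat5, the acetyltransferase of TIP60/EP400, had a slope of -0.06 per hour (adjusted p = 0.0936) and Meaf6 of the same complex -0.05 (adjusted p = 0.17). In INO80, Ino80b and Actr8 had slopes of -0.05 each (adjusted p = 0.161 and 0.151), and in TTT and R2TP, Tti1 had -0.05 (adjusted p = 0.0754) and Wdr92 -0.06 (adjusted p = 0.123). The substrate genes H2afz and H2afv had slopes of 0.05 (adjusted p = 0.39) and -0.01 (adjusted p = 0.951), and Anp32e, the chaperone that removes H2A.Z, had 0.04 (adjusted p = 0.151).

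Over the 10 SYAT libraries the genes whose log2 exon counts were most like those of Srcap were Trrap (Pearson's r = 0.947), Klhdc4 (0.946), Sugp1 (0.942), Phf1 (0.94) and Adpgk (0.938), among 10725 genes with a mean of at least 100 normalized counts. Of the members, Ruvbl2 (0.774), Znhit1 (0.716) and Actl6a (0.642) were the most like Srcap, followed by Ruvbl1 (0.193), Vps72 (-0.0703), Yeats4 (-0.287), Dmap1 (-0.453) and Actr6 (-0.698). These 10 points share a time order and the 6 h library that stands apart, in which Srcap, Ruvbl2, Znhit1 and Actl6a all had their highest level.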

How the data were processed

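Nuclear RNA-seq libraries were mapped by the authors with STAR to mm10, and reads were counted with featureCounts over GENCODE vM25 exons and over introns, taken as gene bodies less exons. The deposited values are raw counts per gene in 4 tables with exon and intron columns for each library. Strand use in counting is not stated. The subunit genes and gene lists were chosen with earlier results of these data known. All genes were fitted per table and column with edgeR 4.0.16 (R 4.3.3, limma 3.58.1): genes with low counts were removed (minimum count 10, total 15), libraries scaled by TMM, and contrasts tested by the two-sided quasi-likelihood F test with Benjamini-Hochberg adjustment, using all groups of a table. The trend was the slope per hour of IAA. Normalized counts are counts divided by relative TMM library size. Scripts were tested on simulated data. DESeq2 1.42.0, RLE scaling, no filter, the compared groups alone, the replicate block and leaving out each library were alternatives. For the intron contrasts of the SYAT time course, intron counts less exon counts were a further alternative. Named genes were all 9 members, in each list the 2 genes with the smallest p in the trend plus H2afz and H2afv, and the 5 genes most like Srcap. Samples with the same replicate number deviated together in EG1 and LG1 (correlations 0.3722 to 0.5865 for exons and 0.1408 to 0.6379 for introns). They did so in the exons of wtSRCAP and cdSRCAP (0.2595 to 0.3759, with 0.07595 to 0.2962 for introns of the same libraries). SYAT time course libraries other than those of 6 h did so too (0.2669 to 0.5889 for exons). This comes from the data and not the labels, and the blocked value stands beside results it changes. Gene ids matched the vM21 annotation in 55141 of 55401 cases without the version, and the coordinates are of GRCm38.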

Additional observations from a re-analysis of the deposited data

Results flagged for a closer look

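For 3 pairs of values, both replicates of one cell line moved one way after 4 h of IAA and both replicates of the other line moved the opposite way, and the differences were not tested because SYAT and CGR8 were normalized in separate tables. The log2 fold change of Srcap exons was 0.15 in SYAT and -0.09 in CGR8. That of Actr6 exons was -0.11 in SYAT and 0.46 in CGR8. That of Vps72 introns was -0.41 in SYAT and 0.32 in CGR8. The intron columns of the SYAT and CGR8 tables did not behave alike. None of the 6 values passed its own test, and groups of 2 libraries are too small to look for a library that stands apart within its group.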

How the results depend on the processing

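Of 2376 recomputed values of single members, 2357 kept their side of the threshold, 16 newly passed and 2 no longer passed. The sign changed for 267 values, 266 of them with an unadjusted p over the threshold under both settings. The remaining one was the fitted Actr6 intron value in EG1, which was 0 without EG1 control replicate 2 and -7.912 without EG1 control replicate 1. Both IAA libraries are at 0 there, so neither is a fold. Of 278 recomputed counts of members called 266 stayed within 1.5 times. Counts of members called went from 0 to 1 (Dmap1) in the 8 h exons under DESeq2, without the filter on low counts and with the replicate block, and in the wtSRCAP exons with the replicate block. Leaving out 1 library moved counts from 0 to 2 in CGR8 exons, 0 to 2 in 6 h exons, 0 to 3 in 6 h introns (Srcap, Actl6a and Ruvbl2), 1 to between 0 and 3 in the exon trend, and 0 to 1 in the intron trend (Vps72). Without both 6 h libraries, chosen after seeing the data, the exon trend called 3. The causes were not tested.

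In the SYAT time course, libraries with the same replicate number deviated together among control, 2, 4 and 8 h. Correlations there were 0.2669 to 0.5889 for exons and 0.2598 to 0.6388 for introns. Pairs with 6 h gave -0.03587 to 0.06227 for exons and 0.001349 to 0.1732 for introns. In CGR8 the correlations were 0.07357 and 0.05964, so there the replicates share only a number. Not every SYAT sample correlated best with its own number. With the replicate block the Dmap1 adjusted p was 0.0216 at 8 h and 0.00777 for the trend. Beside Dmap1 at 8 h and in wtSRCAP, the block changed no call of a member. Among the named partner genes it brought calls for Kat5 (0.0406) and Wdr92 (0.0471) at 6 h and Tti1 (0.0409) in the trend, as adjusted p.

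Counts over all genes depended on the tool. For exons, the replicate block, no filter and DESeq2 gave 76, 88 and 123 calls at 4 h against 0, 823, 885 and 567 at 6 h against 13, 634, 448 and 378 at 8 h against 1, 500, 386 and 117 in CGR8 against 2, 612, 20 and 14 in wtSRCAP against 1, and 345, 10 and 7 in cdSRCAP against 0. For the exon trend the block gave 1530 and DESeq2 1431 against 643. Groups of 2 libraries limit every interval given here, and the fit with the compared groups alone was not run for CGR8, whose table holds no other group.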
